A study of Mus musculus with 2 samples.

Results

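The mitochondrial respiratory chain and ATP synthase are built from 5 protein complexes, and the genes examined here are nuclear genes named for their subunits. A gene was included when its symbol began as those of the subunits of complex I (Nduf followed by a, b, c, s or v and a digit), complex II (Sdha to Sdhd), complex III (Uqcr and Cyc1), complex IV (Cox4 to Cox8) or complex V (Atp5). This gave 81 of the 15623 genes listed in either library, of which 37 belonged to complex I, 4 to complex II, 9 to complex III, 14 to complex IV and 17 to complex V. All 81 were listed in both libraries. Of the 81, 80 are protein coding, and Ndufs5-ps, counted with complex I, is a transcribed pseudogene. In the reference annotation 25 further symbols fitted the pattern without being listed, of which 15 are pseudogenes and 2 are transcribed pseudogenes.

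RNA came from thioglycollate-elicited peritoneal macrophages of young mice, several weeks of age, that were wild type and of strain C57BL/6, which were either nontreated (NT) or stimulated with interleukin-4 (IL-4) for 6 h. IL-4 is the cytokine that drives alternative (M2) polarization of macrophages. All cells had been selected by adherence and kept in low serum, and the labels do not say whether animals were pooled. The labels also name bone marrow as the tissue, although the cell source is given as peritoneal macrophages. Each of the 2 groups was a single library, so no difference could be set against the spread between replicates, and every ratio here compares libraries rather than conditions. In such bulk RNA, fewer cells of a type and less RNA per cell cannot be told apart.

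In respiration, complexes I and II pass electrons from NADH and succinate to ubiquinone, complex III passes them on to cytochrome c, and complex IV delivers them to oxygen. Proton pumping by complexes I, III and IV drives ATP synthesis by complex V. Macrophages polarized by IL-4 are known for a metabolism that relies on oxidative phosphorylation, whereas classically activated macrophages rely more on glycolysis. The core of complexes I, III, IV and V also holds subunits encoded in mitochondrial DNA. None of the 13 mitochondrially encoded subunits was listed in either library, and they were therefore not analysed here.

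The subunit genes were slightly and broadly more abundant in the IL-4 library. Together they held 69174 expected counts before and 83874 after IL-4, which was 0.627% and 0.746% of all counts. An expected count is the estimated number of reads assigned to a gene. The summed counts, scaled to each library total, were 1.19-fold higher in the IL-4 library, or 0.25 on the log2 scale (95% counting interval 0.24 to 0.26). Over the 81 genes the median log2 ratio was 0.25, beside -0.03 for the 15593 genes with at least 1 read. A ratio above 0 was found for 75 of the 81 genes (92.6%) and for 45.3% of all tested genes. Under 3 other scalings of the libraries, 74 to 76 of the 81 stayed above 0.

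The change of any single subunit gene was small. Calls required a log2 ratio of 0.75 or more in either direction together with a 95% counting interval that left out 0. By this rule 1 of the 81 genes was called higher, Cox6a2, and 0 were called lower, where 4.07% of all tested genes were called higher and 6.28% lower. By the interval alone, 56 of the 81 lay above 0, beside 17.9% of all tested genes, and 1 lay below 0, Cox4i1, beside 20.4%. An interval narrows with depth, and the subunit genes are abundant. Among genes with at least 200 reads over both libraries, 55 of 77 subunit genes and 28.0% of all genes had an interval above 0. Intervals cover counting error only, and the reads carried no molecular identifiers to tell copies of 1 molecule apart.

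**Figure D1:**
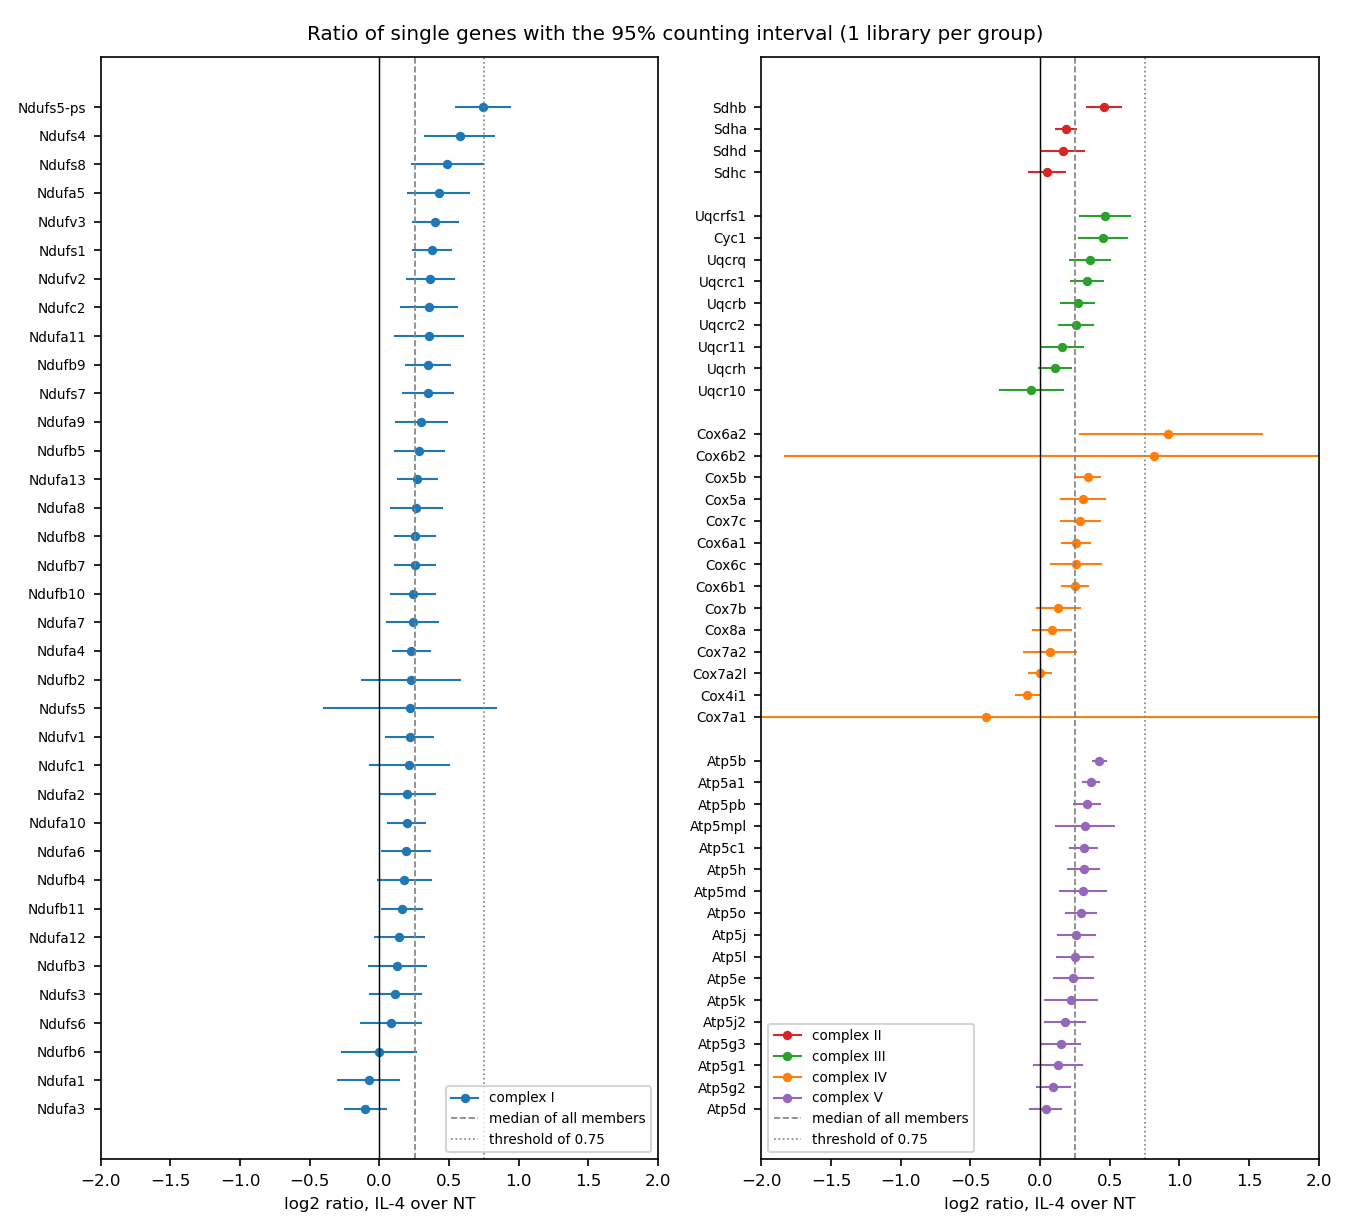
Log2 ratio of IL-4 over NT (x axis) for single subunit genes, ordered within each complex, with points for the ratio and lines for the 95% counting interval. Most points sit between 0 and 0.5, around the median of 0.25 (dashed line), and Cox6a2 alone is past 0.75 with an interval above 0. The intervals of Cox6b2 and Cox7a1, with at most 4 counts, run beyond the axis.

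The transcripts of these genes are short, and this bears on the size of the change. Their median length was 678 bases, beside 2707 bases over all tested genes, and short genes in general had higher ratios between these libraries. The median ratio of the 500 other genes nearest in length had a median of 0.18 over the 81 genes. Other genes with at least 200 reads were few at these lengths, 43 under 500 bases and 177 from 500 to 750. Their median ratios were 0.15 and 0.15. For the shortest subunit genes the nearest 500 therefore took in longer genes. With the median of the nearest 500 subtracted for each gene, the median of the subunit genes was 0.08 rather than 0.25, beside -0.04 for all tested genes. Of the 81 genes, 56 were still above 0 after subtraction, 24 with an interval above 0 and 7 with an interval below 0. Over all 15593 tested genes, 7111 were above 0, 2520 with an interval above 0 and 2837 with one below 0. Among genes with at least 200 reads, 23 of 77 subunit genes and 2125 of all 8463 genes had an interval above 0. An interval below 0 was found for 7 of these 77 and 2244 of these 8463. Whether the length trend comes from the cells or from the preparation of the libraries cannot be told apart with 1 library per group.

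The subunit genes did not all follow the length trend. Among genes with at least 200 reads and from 500 to 750 bases long, 29 subunit genes had a median ratio of 0.26, beside 0.15 for 177 other genes. From 750 to 1000 bases the order was the opposite, with 0.13 for 11 subunit genes and 0.22 for 307 others. The 9 subunit genes from 1500 to 2000 bases had a median of 0.34, beside 0.12 for 1013 others. The 4 from 2000 to 3000 bases had 0.36, beside 0.06 for 1979 others. Over the 77 subunit genes themselves the ratio did not fall with length, with a Spearman correlation of 0.26 and a Pearson correlation of 0.24. These are correlations across genes that share the same pair of libraries, given as a description.

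**Figure D2:**
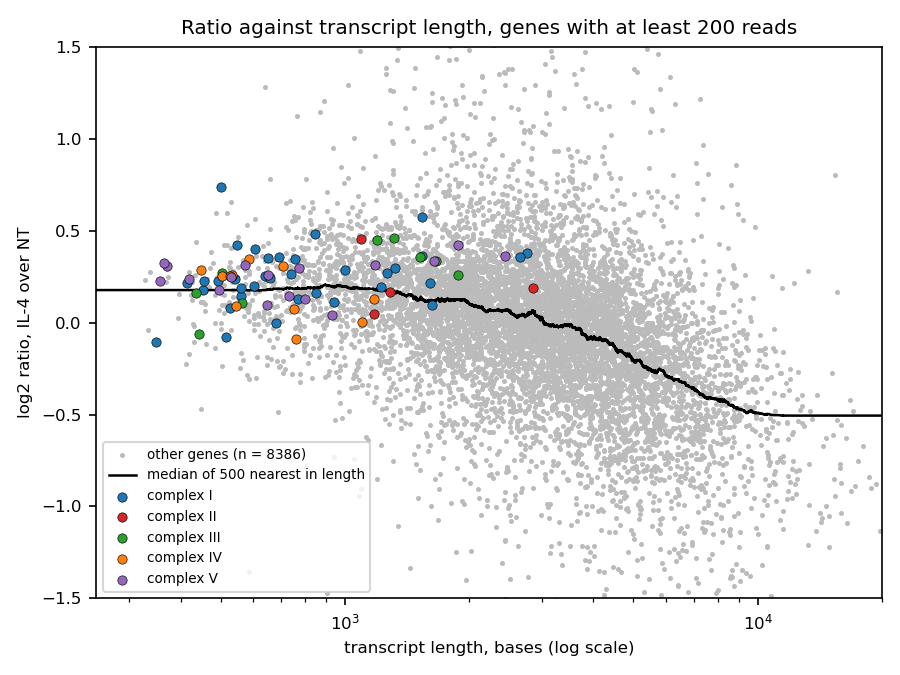
Log2 ratio of IL-4 over NT (y axis) against transcript length in bases (x axis, log scale) for genes with at least 200 reads. Grey points are other genes, the line is the median ratio of the 500 other genes nearest in length, and colored points are subunit genes. The line lies near 0.18 for genes under 1000 bases and falls below 0 beyond 3000 bases, while the longest subunit genes sit above it. For the shortest genes the 500 nearest take in longer ones, so the line is nearly level there. Genes with ratios beyond 1.5 in size lie outside the axis.

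Levels between genes were compared as FPKM, which is scaled for length. By this measure the subunits of complexes IV and V were the most abundant. The median of complex V was 140 FPKM with NT and 166 with IL-4, and the median of complex IV was 116 and 129. The median of complex I was 56.0 and 67.7 FPKM, that of complex II 76.0 and 88.6, and that of complex III 62.2 and 70.2. The highest gene in the NT library was Cox6b1, a subunit on the outer face of complex IV, at 322 FPKM, followed by Atp5b at 305. In the IL-4 library the order of these genes was reversed, with Atp5b at 409 FPKM and Cox6b1 at 384. The order of levels was otherwise much alike in the libraries, with a Spearman correlation of 0.99 over the 81 genes.

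**Figure D3:**
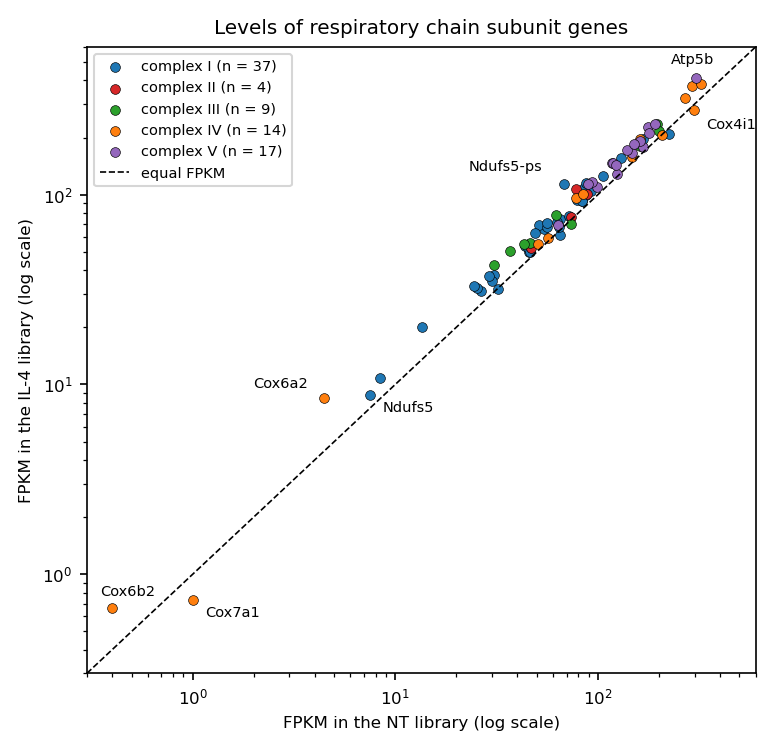
FPKM of each subunit gene in the NT library (x axis) and in the IL-4 library (y axis), both on log scales, colored by complex, with a dashed line of equal FPKM. The genes lie close to the line and mostly just above it. Cox6a2, Cox6b2 and Cox7a1 lie at under 10 FPKM, well below their ubiquitous counterparts Cox6a1, Cox6b1 and Cox7a2. Ndufs5, at 7.54 and 8.79 FPKM, also lies there.

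Complex I, the NADH dehydrogenase, has the largest number of subunits. Its summed log2 ratio was 0.24, with an interval from 0.21 to 0.27, and 34 of 37 genes were above 0. Of the 37, 25 had an interval above 0 and 0 had one below 0. The 7 core subunits that carry the flavin, the iron-sulfur clusters and the ubiquinone site had a median of 0.34, with 5 of 7 intervals above 0. The other 30 genes had a median of 0.23, with 20 of 30. Of all genes with at least 200 reads, 28.0% had such an interval. By summed counts the core was at 0.25 (0.19 to 0.31) and the other genes at 0.24 (0.21 to 0.27), so their sums were alike.

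Within the core of complex I the ratios were uneven. Ndufs8, which carries iron-sulfur clusters, had 218 counts with NT and 311 with IL-4 (24.4 and 32.9 FPKM), which gave a ratio of 0.48 (0.23 to 0.74). Ndufs1, the largest core subunit, went from 770 to 1020 counts, a log2 ratio of 0.38 from 0.24 to 0.51. Both were therefore higher in the IL-4 library beyond counting error. Ndufs3, another core subunit, had 471 and 519 counts and a ratio of 0.11, and its interval from -0.07 to 0.30 included 0.

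Among the accessory subunits, Ndufs4 had the highest ratio of a protein-coding gene in complex I. It is needed for a stable NADH-binding module, and its loss is a known cause of complex I deficiency. Ndufs4 (chromosome 13, 114287795 to 114388094, GRCm38) had 227 counts with NT and 345 with IL-4 (13.5 and 20.1 FPKM), which gave a ratio of 0.58 (0.33 to 0.82). After subtraction of the length trend it was 0.45. Ndufa3, a small membrane subunit and the most abundant gene of complex I, was at the other end, with 789 and 749 counts, or 225 and 209 FPKM. Its log2 ratio of -0.10 was the lowest of complex I, with an interval from -0.25 to 0.04. Ndufa4 had a ratio of 0.23 and carries a complex I symbol, although its protein is now placed in complex IV. Counting it with complex IV left the medians of complexes I and IV at 0.24 and 0.25.

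The value of Ndufs5 could not be separated from that of a copy. Ndufs5 on chromosome 4 had 42.68 and 50.74 expected counts, whereas its transcribed pseudogene Ndufs5-ps on chromosome 16 had 355.32 and 605.26. Their sums were whole, 398 and 656, so the reads were divided between these genes by estimate, and Ndufs5 was given 10.7% of them in NT and 7.73% in IL-4. The log2 ratio was 0.22 for Ndufs5 and 0.74 for Ndufs5-ps, and 0.69 for the sum, with an interval from 0.51 to 0.88. Ndufs5-ps passed the threshold of 0.75 under TMM scaling (0.78) and median-of-ratios scaling (0.77). Of the other 79 genes, Ndufa7, Ndufs1 and Cox7c had counts that were not whole, by under 1 count.

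Complex II, the succinate dehydrogenase of the citric acid cycle, is the complex with no subunit encoded in mitochondria. Its 4 genes summed to 0.21 on the log2 scale (0.16 to 0.27). Sdha, the flavoprotein that oxidizes succinate, held the most reads of them, with 2806 counts for NT and 3259 for IL-4 (88.5 and 101 FPKM), and its ratio was 0.19 (0.11 to 0.26). Sdhb, the iron-sulfur subunit, had 926 and 1296 counts and a higher ratio of 0.46, from 0.33 to 0.58. By FPKM Sdha led complex II in NT, and Sdhb led it in IL-4, at 107. The membrane anchors were lower, with ratios of 0.05 for Sdhc and 0.17 for Sdhd. The intervals of Sdhb and Sdhc (-0.08 to 0.18) did not overlap, so these genes differed by more than counting error.

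In complex III, which passes electrons from ubiquinol to cytochrome c, the 9 genes summed to a log2 ratio of 0.26, from 0.22 to 0.31. The 4 core genes had a median of 0.39, and all 4 had an interval above 0, also after subtraction of the length trend. Of all 8463 genes with at least 200 reads, 28.0% had such an interval, and 2125 had one after subtraction. Uqcrfs1, the Rieske iron-sulfur protein, had 441 and 620 counts, or 30.7 and 42.4 FPKM, a log2 ratio of 0.46 from 0.29 to 0.64. Cyc1, which is cytochrome c1, had 478 and 667 counts, or 36.8 and 50.3 FPKM, and a ratio of 0.45. Both catalytic genes thus moved alike. Uqcrc1 and Uqcrc2, the large core proteins on the matrix side, had ratios of 0.34 and 0.26. Uqcr10, a small accessory subunit, had 336 and 328 counts and the lowest ratio of this complex, -0.06, with an interval from -0.29 to 0.16. The highest levels of complex III were those of Uqcrh, at 201 FPKM with NT and 216 with IL-4, and Uqcrb, at 195 and 235 FPKM, so that Uqcrh led in NT and Uqcrb in IL-4. Their ratios were 0.11 and 0.27.

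In complex IV, the cytochrome c oxidase, the summed ratio was 0.15, and its interval from 0.12 to 0.19 did not overlap those of complexes I, III and V. Of its 14 genes, 7 had an interval above 0 and 1 below 0, beside 17.9% and 20.4% of all tested genes. Among all genes with at least 200 reads, 28.0% had an interval above 0. Cox4i1, the subunit that binds ATP and is needed for assembly, had 2425 counts with NT and 2321 with IL-4 (298 and 280 FPKM). The ratio was -0.09 (-0.17 to -0.01), and its interval reached 0 under TMM and median-of-ratios scaling. Subtraction of the length trend instead took it to -0.28 (-0.36 to -0.19). Cox5b, which binds zinc, had 1803 and 2333 counts, or 293 and 372 FPKM, and a ratio of 0.34 from 0.25 to 0.43. Both genes were among the most abundant and yet their intervals were far apart.

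Cox7a2l, a protein that joins complexes III and IV into supercomplexes, had 2469 and 2519 counts and a ratio of 0.00, from -0.08 to 0.08, which was -0.18 (-0.26 to -0.10) after subtraction of the length trend. Cox4i1 and Cox7a2l were the deepest genes of complex IV. Without them, a choice made after their values were seen, the other 12 genes summed to 0.25, from 0.21 to 0.29. Of the rest, Cox6b1 went from 1697 to 2060 counts and Cox6a1 from 1502 to 1830, with ratios of 0.25 and 0.26. Cox8a, Cox7b and Cox7a2 had ratios of 0.09, 0.13 and 0.07 with intervals that included 0.

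Several complex IV subunits exist as a ubiquitous form and as forms restricted to muscle, testis or other tissues, and the macrophages used the ubiquitous forms. Of 8 restricted isoforms, 5 were listed in neither library, namely Cox4i2, Cox7b2, Cox8b, Cox8c and Ndufa4l2. Cox6b2 had 2 and 4 counts and Cox7a1 had 4 and 3, at or close to the 3 counts taken as the smallest abundance that could be shown. Cox7a2, the ubiquitous form of the latter, was at 56.4 and 59.3 FPKM, which was 56.4 and 81.3 times the FPKM of Cox7a1.

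Cox6a2, the form found in heart and skeletal muscle, was the one subunit gene that was called. Cox6a2 (chromosome 7, 128205435 to 128206366, GRCm38) had 32 counts with NT and 62 with IL-4 (4.44 and 8.43 FPKM). The ratio of 0.92 had a wide interval, 0.29 to 1.59, which held the threshold of 0.75. After subtraction of the length trend it was 0.73 and no longer called. The ubiquitous Cox6a1 was at 269 and 322 FPKM. Cox6a2 therefore made up 1.62% of the summed FPKM of this pair in NT and 2.55% in IL-4. Its locus overlaps that of the integrin gene Itgad, which was listed in neither library.

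Complex V, the ATP synthase, had the highest summed ratio, 0.31, from 0.29 to 0.34, and all 17 genes were above 0. Its F1 sector holds the catalytic sites in the matrix, and its Fo sector forms the proton channel in the membrane. Atp5b, the catalytic beta subunit, had 6317 counts with NT and 8647 with IL-4, a log2 ratio of 0.43 from 0.38 to 0.47. Atp5a1, the alpha subunit that alternates with it, had 4788 and 6287 counts, or 177 and 228 FPKM, a ratio of 0.37 from 0.31 to 0.42. These genes held the most reads of all 81, and after subtraction of the length trend each was still at 0.30. Without them, a choice made after their values were seen, complex V summed to 0.24, from 0.20 to 0.27.

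The remaining F1 genes ranged down to Atp5d. Atp5c1, the gamma subunit of the rotating stalk, had a ratio of 0.31 and Atp5e, the epsilon subunit, 0.24. Atp5d, the delta subunit, had 1252 and 1312 counts and the lowest ratio of complex V, 0.04, from -0.07 to 0.15. The interval of Atp5d did not overlap those of Atp5b, Atp5a1 and Atp5c1. The 9 genes of the peripheral stalk and of the membrane sector outside the c ring were close together, with ratios from 0.18 to 0.34. Their median was 0.30 and all 9 intervals lay above 0, beside 28.0% of all genes with at least 200 reads.

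The c ring, which turns as protons cross the membrane, is encoded by 3 genes whose mature proteins are the same. Atp5g1 had 543 and 605 counts, Atp5g2 had 1140 and 1241, and Atp5g3 had 775 and 875. Their log2 ratios were 0.13, 0.09 and 0.15, with 1 of the 3 intervals, that of Atp5g3, above 0. Such an interval was found for 28.0% of all genes with at least 200 reads. The c ring genes summed to 0.12, from 0.04 to 0.20, below the interval of the summed F1 genes (0.32 to 0.39). Atp5b and Atp5a1, however, held 11105 of the 14638 F1 counts in NT. Of the other F1 genes, Atp5c1 (0.31) and Atp5e (0.24) had ratios above those of the c ring genes, and Atp5d (0.04) below. The shares of the c ring genes in their summed FPKM were nearly equal in the libraries, with Atp5g2 at 50.5% and 49.7%, Atp5g3 at 30.2% and 30.8%, and Atp5g1 at 19.3% and 19.4%. All 3 were below 0 after subtraction of the length trend.

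Most of the 81 genes had a counting interval that included their common median, but the spread was wider than counting error alone would give. The interval of 61 included the median of 0.25, 11 lay below it and 9 above it. Those above were Ndufs4, Ndufs5-ps, Sdhb, Cyc1, Uqcrfs1, Cox5b, Cox6a2, Atp5a1 and Atp5b. Those below included Ndufa1, Ndufa3, Sdhc, Uqcr10, Uqcrh, Cox4i1, Cox7a2l, Cox8a, Atp5d and Atp5g2.

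Nuclear genes of the respiratory chain are known to be controlled through promoter sites for NRF1 and for ETS factors such as GABPA, and YY1 is another known regulator. Promoter sequences from RefSeq (GRCm38.p6), from 250 bases before to 50 after the start of a gene, were at hand for 66 of the 81 genes, as 71 promoters. The NRF1 letters, GCGCA and GCGC with 1 base between them, were found on either strand in 18 of the 71 (25.4%), beside 4.60% of all 32851 promoters and 8.64% of the 15320 promoters of genes tested here. The ETS letters CCGGAAG were found in 17 of 71 (23.9%), beside 15.4% for tested genes. The YY1 letters AAGATGG were found in 11 of 71 (15.5%), beside 6.74%. A STAT6 form, TTC and GAA with 4 bases between them, was found in 4 of 71 (5.63%), beside 5.60% for tested genes, namely in Ndufa9, Ndufc1, Uqcrfs1 and Cox6b1. A match is a description of the sequence and not proof of a site.

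Subunit genes with and without these letters had close median ratios. The median log2 ratio was 0.22 for 17 subunit genes with an NRF1 match and 0.24 for 49 without one. It was 0.25 for 17 genes with an ETS match and 0.23 for 49 without. The 250 bases before the start are shown for genes with many matches and for Atp5b, which had none of them and one of the highest ratios. Capitals mark NRF1 matches and, near the end of Cox6a1, an ETS match on the other strand.
Sdha promoter, chr13:74350241-74350490, minus strand: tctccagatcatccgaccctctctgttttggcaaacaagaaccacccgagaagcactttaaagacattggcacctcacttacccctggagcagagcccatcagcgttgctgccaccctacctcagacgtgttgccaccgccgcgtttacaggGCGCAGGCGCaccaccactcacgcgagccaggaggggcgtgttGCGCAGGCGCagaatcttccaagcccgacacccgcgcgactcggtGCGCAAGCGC
Ndufb4 promoter, chr16:37654369-37654618, minus strand: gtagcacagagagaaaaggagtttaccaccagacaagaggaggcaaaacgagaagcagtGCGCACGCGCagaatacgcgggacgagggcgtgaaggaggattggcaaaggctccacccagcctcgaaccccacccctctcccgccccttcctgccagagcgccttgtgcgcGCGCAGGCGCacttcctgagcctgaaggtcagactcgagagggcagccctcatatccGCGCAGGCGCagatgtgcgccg
Cox6a1 promoter, chr5:115348959-115349208, minus strand: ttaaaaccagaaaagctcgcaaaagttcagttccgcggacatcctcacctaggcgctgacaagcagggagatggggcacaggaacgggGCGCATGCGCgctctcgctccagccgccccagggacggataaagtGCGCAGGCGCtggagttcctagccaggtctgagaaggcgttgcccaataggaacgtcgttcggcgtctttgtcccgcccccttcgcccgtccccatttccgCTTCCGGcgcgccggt
Atp5b promoter, chr10:128083057-128083306, plus strand: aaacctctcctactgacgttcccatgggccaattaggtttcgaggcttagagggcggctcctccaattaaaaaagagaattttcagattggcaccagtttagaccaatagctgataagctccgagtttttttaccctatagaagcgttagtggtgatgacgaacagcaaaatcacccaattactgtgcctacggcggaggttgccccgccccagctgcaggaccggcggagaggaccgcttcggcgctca

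Sdha and Ndufb4 each held 3 NRF1 matches and had log2 ratios of 0.19 and 0.18. Cox6a1 held 2, and had a ratio of 0.26. Promoters of Cox6a2, Cyc1 and Cox4i1 were not at hand.

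Genes that serve the chain without being subunits were set beside it. The 46 listed assembly factors had a median log2 ratio of 0.10, with 29 of 46 above 0. An interval above 0 was found for 11 and one below 0 for 1, beside 17.9% and 20.4% of all tested genes. None was called, where 4.07% of all tested genes were called higher and 6.28% lower. With the length trend subtracted the median of the assembly factors was -0.05. The highest was Ndufaf4, an assembly factor of complex I, with 138 and 227 counts and a ratio of 0.69 from 0.38 to 1.01. Cox10, which makes the heme of complex IV, had 207 and 308 counts and a ratio of 0.54.

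Among 8 listed carriers and other enzymes that reduce ubiquinone, 1 was called higher, Cycs, beside 4.07% of all tested genes. Cycs encodes cytochrome c, the carrier between complexes III and IV, and had 766.21 counts with NT and 1323.84 with IL-4. The ratio was 0.76, from 0.63 to 0.89, just past the threshold of 0.75. It fell below 0.75 when the top 100 genes were left out of the totals. After subtraction of the length trend it was 0.76 as well, as the listed length of Cycs is 3059 bases. Its interval lay above that of Cox4i1 and only just above that of Cyc1, with which it exchanges electrons (lower bound 0.632 beside an upper bound of 0.625). The counts of Cycs were not whole, so some reads were divided with other genes by estimate, which the interval does not cover. Etfa and Etfb, which bring electrons from fatty acid oxidation, each had a ratio of 0.48. Sqor, which oxidizes sulfide, had a ratio of -0.21.

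Of 12 regulators of respiratory chain transcription, 1 was called higher and 1 lower, and both are PGC-1 coactivators. Over all tested genes these shares were 4.07% and 6.28%. Ppargc1b, encoding PGC-1 beta, had 81 and 158 counts, a log2 ratio of 0.93 from 0.54 to 1.34. Ppargc1a, encoding PGC-1 alpha, had 25 and 12.27 counts, a ratio of -1.03 (-2.21 to -0.04). After subtraction of the length trend Ppargc1a was at -0.71 and no longer called, whereas Ppargc1b was at 0.97. Nrf1 (0.19), Gabpa (-0.13) and Tfam (0.28), which drives transcription of mitochondrial DNA, had intervals that included 0, and Yy1 was at -0.39, from -0.56 to -0.21. Of 4 genes that inhibit ATP synthase or can carry protons past it, the inhibitor of ATP synthase Atpif1 had a ratio of -0.02 and the uncoupling protein Ucp2 one of -0.26, from -0.33 to -0.19. The other 2 genes of that list, the ADP/ATP carriers Slc25a4 and Slc25a5, had ratios of 0.32 (0.18 to 0.46) and 0.39 (0.32 to 0.47). Ucp2 was abundant, at 205 and 171 FPKM.

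**Figure D4:**
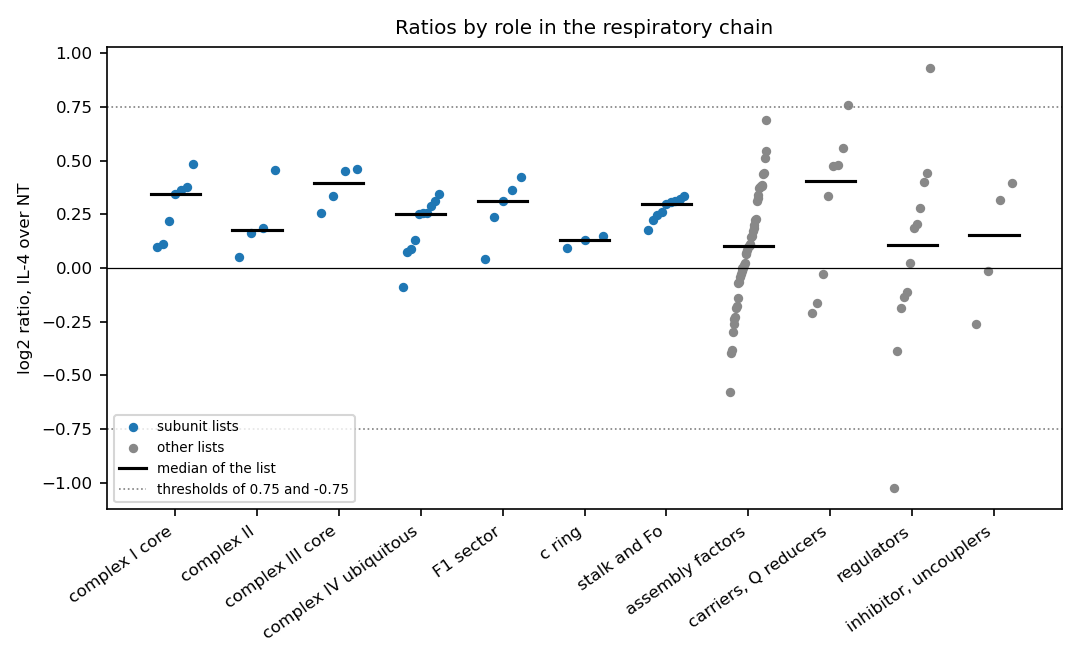
Log2 ratio of IL-4 over NT (y axis) for genes grouped by role, with a bar at the median of each list. The subunit lists (blue) have medians from 0.13 to 0.39, and the assembly factors (grey) have a median of 0.10 and a wider spread. The points past the dotted lines at 0.75 and -0.75 are Cycs, Ppargc1b and Ppargc1a.

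The libraries held 11035641 and 11250099 expected counts over 14842 and 14717 listed genes. The 8 macrophage markers summed to 188650 counts with NT and 195842 with IL-4, mostly from Lyz2 (129463 and 126458) and Cd68. Within that list Csf1r was called higher (6236 and 11896 counts, log2 ratio 0.90) and Cd14 lower (1219 and 591, log2 ratio -1.07). Markers of other cells were low, at 106 and 97 counts for 5 B cell genes, 43.7 and 31.2 for 5 listed T cell genes of 6, 60 and 37 for 4 listed mast cell genes of 5, 71.8 and 43.2 for 3 listed eosinophil genes of 6, and 146 and 167 for 5 mesothelial genes. Of 6 neutrophil genes, S100a9, Ly6g and Mpo were at 0 in both libraries, S100a8 had 35 and 21 counts, and Csf3r, which macrophages also express, had 1758 and 3291. Of the 81 subunit genes, 26 overlap another annotated gene, and the sources used here do not say whether strand was kept. In most such cases the other gene had few or no counts, but Atp5j overlaps Gabpa, Cox7a2 overlaps Tmem30a, Ndufv2 overlaps Ankrd12 and Ndufb11 overlaps Rbm10, each with 399 counts or more in NT.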

How the data were processed

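Total RNA of 1 NT and 1 IL-4 library was sequenced by BGI (HiSeq, per the labels). The authors aligned the reads with Bowtie (GRCm38/mm10) and estimated abundance in RSEM, and versions are not given in the sources used here. The deposited tables give RSEM expected counts, which are not scaled for depth, and FPKM values, which the authors scaled for transcript length and depth. The deposited length column is in bases. In RSEM the length used for FPKM is somewhat shorter than the listed length, by a median of 9.36% for genes under 400 bases, relative to genes over 3000 bases.

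Gene numbers were matched to symbols through a RefSeq table for GRCm38.p6 (15587 of 15623). A gene absent from a table was set to 0. Log2 ratios were computed from expected counts scaled to library totals with 0.5 count added. Counts were rounded to whole numbers before an exact 95% interval (Clopper-Pearson) was taken for the share of reads from IL-4 and put on the log2 scale. The 30 genes with rounded counts of 0 throughout were not tested. Calls were made over all 15593 genes, and no p-value is given because each group has 1 sample. The threshold of 0.75 is that of the study. At these depths 3 counts, the smallest abundance shown, are 0.272 CPM (NT) and 0.267 CPM (IL-4). The length trend used 500 genes outside the subunits with at least 200 reads. Alternatives were scaling by TMM (edgeR 4.0.16) or by median of ratios (DESeq2 1.42.0), totals leaving out the top 100 genes, FPKM with 0.1 or 1 added, other thresholds and filters. Intervals, calls and the trend were tested on simulated data. Genes named singly were those called, the extremes of ratio and level in each complex, core subunits, tissue-restricted isoforms and called genes of the other lists. The subunit genes and lists were chosen with earlier results of these data known, and other names were picked after their values were seen. For 1 subunit gene, single values are not reported here, and it is counted in sums, medians and counts. Python 3.11.15, scipy 1.17.1 and R 4.3.3 were used.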

Additional observations from a re-analysis of the deposited data

How the results depend on the processing

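No paired analysis was possible because a single library stands for each group. Subtraction of the length trend changed the most, with medians of 0.0780 for all subunit genes, 0.0762 for complex IV, 0.0802 for complex V and -0.0452 for the assembly factors, which had been 0.10. Under it 0 subunit genes were called higher, 24 had an interval above 0 and 7 below 0. Of all tested genes, 634 were then called higher, 2520 had an interval above 0 and 2837 below 0. TMM scaling and median-of-ratios scaling each gave 2 subunit genes called higher and 0 with an interval below 0. A fold of at least 1.5 gave 2 subunit genes and 1 assembly factor called higher, beside 860 genes of all. A log2 ratio of at least 1 gave 0 subunit genes called higher, and 580 genes of all called lower, from 979. FPKM with 1 added gave 391 genes higher, from 635, and 399 lower, and whole counts alone gave 644 lower. FPKM carries no counting interval, so counts of intervals were not run for it. The median of all subunit genes was 0.23 to 0.29 under every alternative other than the length trend. For the other changes the cause was not tested. Depth limits Cox6a2, Cox6b2 and Cox7a1, and the interval of Cox4i1 is close enough to 0 to reach it under another scaling.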
